A study of Mus musculus with 8 samples.

Results

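The immediate-early genes Fos, Fosb, Fosl2, Jun, Junb, Egr1, Egr2, Ier2, Dusp1 and Nr4a1 were followed in whole mouse embryos of 3 genotypes of the Rbm15 gene, also called Ott1. These 10 genes were listed as ones that respond to handling before a sample is frozen. A gene was followed through each gene probe of the array whose RefSeq transcript accession belongs to it. Of the 10 listed genes, 9 had a probe, 1 each, among 34967 gene probes that stand for 13971 named genes and for unnamed transcripts, and Fosl2, a Fos-related AP-1 subunit, was not analysed here. A probe entered the tests when every embryo of some genotype had its spot above background. A spot counted as above background when its deposited flag marked it neither as low nor as faulty, so a positive intensity could still count as background. Of the 9 genes, 7 met that filter (Jun, Junb, Fosb, Egr2, Ier2, Dusp1 and Nr4a1), and 6 of these were above background on all 8 arrays, the exception being Junb, with 7. Fos and Egr1 did not meet it and are described by their levels.

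Immediate-early genes are transcribed within minutes of a stimulus, without new protein synthesis, when growth factors, serum, stretch or injury act through MAP kinases on factors already bound at their promoters, such as SRF with its ternary complex partners and CREB. Fos and Jun family proteins pair into the AP-1 transcription factor, Egr proteins are zinc-finger factors, Nr4a1 is an orphan nuclear receptor, and Dusp1 is a phosphatase that shuts the MAP kinases off again. In the embryo several of them also have stage-specific roles: Jun is needed for liver development, and Egr2, first named Krox20, patterns the hindbrain and later directs Schwann cell myelination. Their transcripts are short-lived, so their level in frozen tissue depends on both the living tissue and what was done to it before freezing.

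The embryos came from matings of mice with an Ott1 allele of low expression and were taken at E11.5, in mid-gestation. Homozygous embryos 2, 7 and 16 carried the allele on both chromosomes, heterozygous embryos 3, 10 and 15 on one, and wild-type embryos 11 and 13 on neither. Each of the 8 arrays held RNA of 1 whole embryo, dissected and snap-frozen in liquid nitrogen, labelled as biotinylated cRNA and read on a CodeLink one-colour oligonucleotide array. The labels used here do not give litter, sex, strain, the order of dissection or the time before freezing, so none of these could be set beside the values. Rbm15 itself had no matched probe, so the genotype labels were not checked against its level. RNA of whole embryos cannot tell fewer expressing cells from less RNA per cell.

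Promoter windows of 4 of the genes are shown with their matches to short motifs. Windows ran for 300 bases, 250 before and 50 after a RefSeq transcript start in GRCm38.p6, on the strand of the gene. Of the members other than Egr1, 8 had such a window, 12 windows in all, since Egr2 had 5 that partly overlap, and Ier2 had none. They were searched for 7 motifs on both strands, and a match is a description, not a site in use.
Fos, chr12:85473640-85473939, plus strand: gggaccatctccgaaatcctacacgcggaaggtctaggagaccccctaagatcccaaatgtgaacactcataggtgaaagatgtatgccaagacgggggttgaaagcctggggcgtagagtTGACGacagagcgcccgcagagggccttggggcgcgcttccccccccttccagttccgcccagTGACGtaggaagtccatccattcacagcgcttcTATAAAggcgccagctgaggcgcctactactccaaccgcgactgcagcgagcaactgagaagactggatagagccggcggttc
Junb, chr8:84978699-84978998, minus strand: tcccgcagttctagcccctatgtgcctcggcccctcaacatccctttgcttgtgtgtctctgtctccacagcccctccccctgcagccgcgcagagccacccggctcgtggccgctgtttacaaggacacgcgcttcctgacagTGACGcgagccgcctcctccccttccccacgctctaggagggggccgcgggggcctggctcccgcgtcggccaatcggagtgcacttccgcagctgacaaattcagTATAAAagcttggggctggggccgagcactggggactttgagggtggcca
Egr2, chr10:67537619-67537918, plus strand: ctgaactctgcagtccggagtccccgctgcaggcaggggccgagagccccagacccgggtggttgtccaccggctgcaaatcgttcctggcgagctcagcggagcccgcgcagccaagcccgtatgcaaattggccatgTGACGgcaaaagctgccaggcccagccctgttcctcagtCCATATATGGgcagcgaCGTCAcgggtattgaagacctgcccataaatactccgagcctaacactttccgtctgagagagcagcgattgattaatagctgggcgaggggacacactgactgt
Dusp1, chr17:26508423-26508722, minus strand: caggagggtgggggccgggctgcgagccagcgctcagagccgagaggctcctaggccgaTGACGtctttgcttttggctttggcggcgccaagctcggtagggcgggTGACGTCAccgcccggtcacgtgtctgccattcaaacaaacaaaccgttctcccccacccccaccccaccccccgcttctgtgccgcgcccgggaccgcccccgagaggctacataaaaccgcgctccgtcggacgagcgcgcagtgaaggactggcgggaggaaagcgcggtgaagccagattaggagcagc

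Capitals in these sequences mark, on either strand, the CArG box that SRF binds, the cAMP response element TGACGTCA or its short core TGACG, the AP-1 site TGANTCA, the EGR site GCGNGGGCG and the TATA box TATAAA. The short core lies inside the full element, so each full element also counts as a core on both strands. The Egr2 window held the CArG box, with its first base 72 bases before the transcript start, between a pair of short cores. A CArG box was found in 1.63% of 32851 mouse promoter windows of the same length and, among 8 member genes, only in Egr2. Of the 12 member windows 4 held one, but some of these Egr2 windows overlap and share the same box. Those 4 windows are therefore not independent of each other, and their share is not comparable with that of all windows. Sequence outside the windows was not searched, so whether the other genes have a CArG box farther away was not tested. The Dusp1 window held the full cAMP response element, found in 1.79% of all windows and in 1 member window. The short core was in 8 of the 12 member windows, of 6 genes (Fos, Fosb, Junb, Egr2, Nr4a1 and Dusp1), and in 20.8% of all windows. Overlapping Egr2 windows that share the same cores are among the 8, so that share is likewise not comparable with that of all windows. Fos and Junb were the 2 genes with a match to the TATA box pattern, present in 13.6% of all windows. Its first base lay at -33 from the transcript start in Fos but on the annotated start itself in Junb. The EGR site was in the windows of Fosb, Fosl2 and Nr4a1 and in 5.55% of all windows, and the AP-1 site was in none of the member windows and in 7.81% of all windows. The GC box GGGCGG, not capitalised, was in 8 of the 12 member windows, of 7 genes, and in 35.7% of all windows.

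Values are log2 of background-corrected intensities, quantile normalized between arrays and floored, so 1 unit is a 2-fold change, and levels are not compared between probes. Before normalization the median gene-probe intensity of an array was 60.0, 61.9 and 84.5 in homozygous embryos 2, 7 and 16, against 48.4 to 57.8 in heterozygous and 56.2 and 56.7 in wild-type embryos. Embryo 16 stood apart: its negative control spots had a 95th percentile of 76.3, against 14.3 to 22.2 on the other 7 arrays, and its log2 values correlated with those of other arrays at 0.956 to 0.968, against 0.973 to 0.990 among the other 7. None of the 72 member spots was marked as faulty or saturated by the scanner software, and 56 were above background. The label of whole embryo was met by heart (Actc1, mean log2 intensity 13.1), neuron (Gap43, 11.4), liver (Afp, 10.6) and primitive red cell (Hbb-y, 15.1) markers on all 8 arrays. Of the extra-embryonic markers, Prl8a2 of the decidua was above background on 7 arrays and Psg17 of the placenta on 8, while Tpbpa of the trophoblast was so on 1. Of the visceral endoderm list, Dab2 was above background on 8 arrays and Amn on 0.

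No immediate-early gene passed the test in any of the 4 comparisons between genotypes. In limma, with Benjamini-Hochberg adjustment over all tested probes and a threshold of 0.05, 0 of the 7 tested genes were called in homozygous embryos against the 5 other embryos, where 0.107% of all probes were. None was called in homozygous against wild-type (0.0342% of all probes), heterozygous against wild-type (0% of all probes) or homozygous against heterozygous embryos (0.0214%). At an unadjusted p under 0.05 the counts were 1, 0, 0 and 0 of the 7 genes, and the shares of all probes were 20%, 15.3%, 2.3% and 11.6%. The 4 comparisons share arrays and are not independent of each other.

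**Figure D1:**
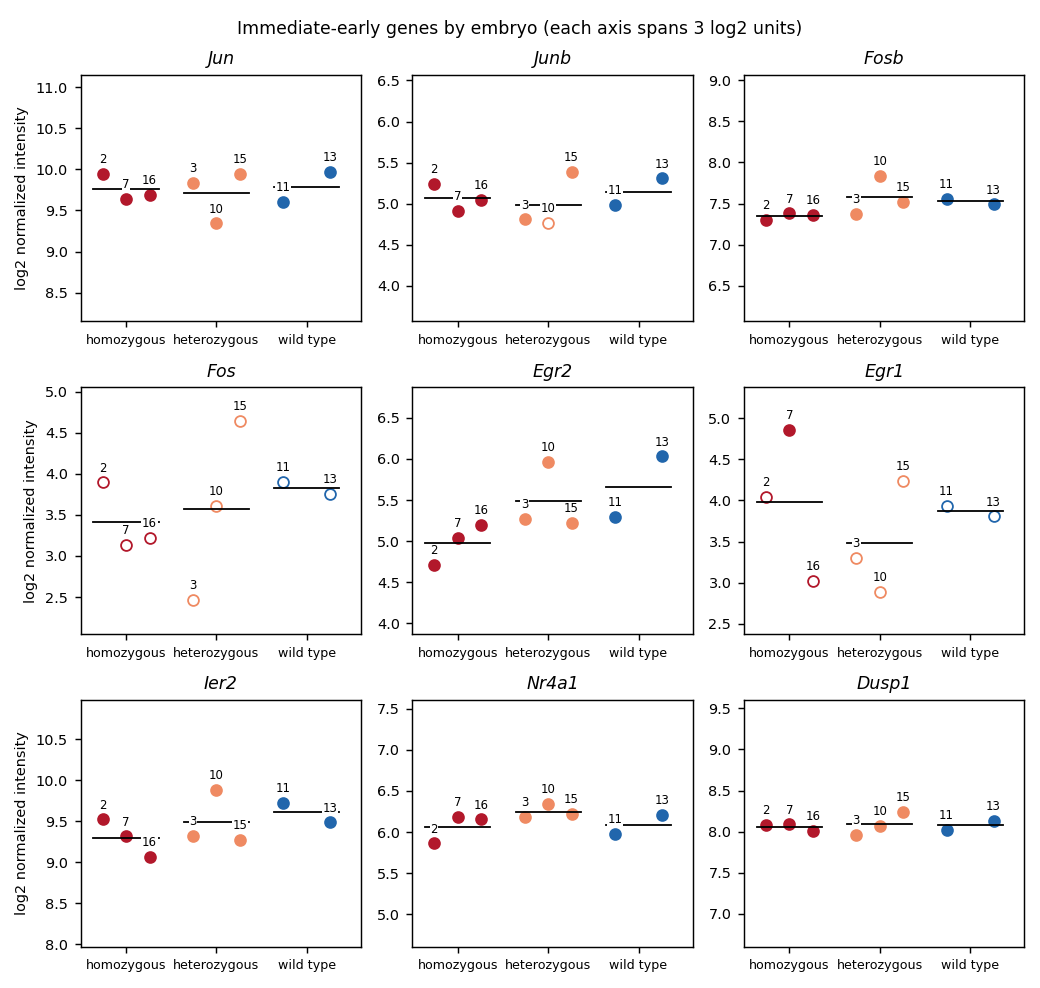
Log2 normalized intensity (vertical axis, 3 log2 units in each panel) of the 9 immediate-early genes with a probe, for homozygous, heterozygous and wild-type embryos. Each point is 1 embryo with its number, filled where the spot was above background by its flag and open where it was not, and bars are group means. The 3 homozygous embryos lie below the 5 others for Egr2, at 4.71 to 5.20 against 5.22 to 6.03, and the groups overlap for the 8 other genes.

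Among the AP-1 subunits, Jun is the partner that binds DNA with Fos proteins or with itself. Jun had log2 intensities of 9.95, 9.64 and 9.69 in homozygous embryos 2, 7 and 16, 9.84, 9.34 and 9.95 in heterozygous embryos 3, 10 and 15, and 9.60 and 9.97 in wild-type embryos 11 and 13. The 3 genotypes overlapped throughout, and the lowest embryo, heterozygous 10, differed from the highest, wild-type 13, by 1.54-fold. Homozygous minus other embryos, the difference was 0.02 (SE 0.16, 95% interval -0.35 to 0.39, limma adjusted p = 0.955). That interval allows a fold between 0.786 and 1.31. The sign of this difference depended on the scaling: with arrays scaled to their medians it was -0.24, beside a shift of the median of all tested probes to -0.22, where quantile normalization left that median at -0.06.

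Junb, an AP-1 subunit that can restrain Jun, lay close to background. Its log2 intensities were 5.24, 4.91 and 5.05 in homozygous embryos, 4.81, 4.76 and 5.38 in heterozygous embryos and 4.99 and 5.31 in wild-type embryos, in the same order of embryo numbers. Heterozygous embryo 10 was the 1 array on which Junb was not above background. The genotypes overlapped, with a difference of 0.02 between homozygous and other embryos (SE 0.17, 95% interval -0.37 to 0.40, limma adjusted p = 0.967). In embryo 16 its intensity of 52.8 lay below the 95th percentile of the negative controls of that array.

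Fosb, a Fos relative known for its lasting induction in the brain, was tight in homozygous embryos, at 7.30, 7.38 and 7.36. It was 7.38, 7.84 and 7.52 in heterozygous and 7.56 and 7.49 in wild-type embryos. The homozygous values lay below both wild-type values but met the lowest heterozygous one, that of embryo 3. Homozygous minus other embryos, the difference was -0.21 (SE 0.11, 95% interval -0.47 to 0.05, limma adjusted p = 0.323), with group means of 7.35 ± 0.04 (SD, n = 3) in homozygous and 7.56 ± 0.17 (SD, n = 5) in other embryos.

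Fos, the founding member of the group, was flagged as low, and so not above background, in every embryo. Its deposited intensities were 13.5, 8.25 and 17.1 in homozygous embryos 2, 7 and 16, 5.03, 9.98 and 20.4 in heterozygous embryos 3, 10 and 15, and 13.2 and 11.6 in wild-type embryos 11 and 13. The groups overlapped, and the share of negative control spots below the Fos spot ran between 43.1% in heterozygous embryo 3 and 97.8% in heterozygous embryo 15. No fold is given for Fos, since no genotype was measured above background.

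Egr2 was the 1 tested member whose homozygous and other embryos did not overlap. Its log2 intensities were 4.71, 5.04 and 5.20 in homozygous embryos 2, 7 and 16, 5.27, 5.96 and 5.22 in heterozygous embryos 3, 10 and 15, and 5.30 and 6.03 in wild-type embryos 11 and 13. The gap was narrow: homozygous embryo 16 and heterozygous embryo 15 were 5.20 and 5.22, and the upper end was set by heterozygous embryo 10 and wild-type embryo 13. Of all tested probes, 9.69% likewise had every homozygous embryo below every other embryo. The group means were 4.98 ± 0.25 (SD, n = 3) in homozygous and 5.56 ± 0.40 (SD, n = 5) in other embryos, a difference of -0.57 (SE 0.23, 95% interval -1.10 to -0.05), or 0.672-fold. Its unadjusted p was 0.0358 and its limma adjusted p was 0.223, so the difference did not pass. The value moved to -0.24 (limma adjusted p = 0.239) when background was corrected by normexp with an offset of 50, which draws dim values together. In embryo 16 the Egr2 intensity of 57.1 was below the 95th percentile of that array's negative controls, and without embryo 16 the difference was -0.72 (limma adjusted p = 0.289). In homozygous embryo 2, which had the lowest Egr2 value, the intensity of 25.1 was only just above the 95th percentile of its array's negative controls, 22.2.

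Other genes of the hindbrain and neural crest, the places where Egr2 is a marker, were read beside it. Of 5 listed genes, 4 had a tested probe, and in each comparison 0 passed and 0 had an unadjusted p under 0.05. Homozygous minus other embryos, the log2 differences were 0.18 for Hoxb1 and 0.19 for Hoxb2, the Hox genes of the hindbrain, and -0.07 for Foxd3, a neural crest factor. The median of the 4 was 0.05, beside -0.06 for all tested probes.

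Egr1, the zinc-finger factor most often used as a mark of recent growth factor signalling, was above background in 1 embryo, homozygous 7. Its deposited intensity there was 28.7, above 99.4% of that array's negative control spots. The other homozygous embryos, 2 and 16, had 15.3 and 14.7, against 8.84, 6.21 and 15.2 in heterozygous embryos 3, 10 and 15 and 13.6 and 12.1 in wild-type embryos 11 and 13. With 2 of 3 homozygous embryos and all others at background, no fold is given.

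Ier2, a nuclear protein induced early by growth factors, was well above background in every embryo. Its log2 intensities were 9.52, 9.32 and 9.07 in homozygous embryos 2, 7 and 16, 9.32, 9.88 and 9.28 in heterozygous embryos 3, 10 and 15, and 9.73 and 9.49 in wild-type embryos 11 and 13. Embryo 16 was the lowest and embryo 10 the highest, and the genotypes overlapped. The difference of homozygous minus other embryos was -0.24 (SE 0.17, 95% interval -0.62 to 0.15, limma adjusted p = 0.442). It ran between -0.53, on the scale of the deposited value table, and -0.03, without embryos 10 and 16, with adjusted p-values of 0.202 and 0.924 at those ends.

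Nr4a1, also called Nur77, had log2 intensities of 5.86, 6.18 and 6.15 in homozygous embryos, 6.18, 6.35 and 6.22 in heterozygous embryos and 5.98 and 6.20 in wild-type embryos. The highest homozygous value lay just below the lowest heterozygous one, and the wild-type values overlapped both groups. Homozygous minus other embryos, the difference was -0.12 (SE 0.12, 95% interval -0.39 to 0.14, limma adjusted p = 0.574).

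Dusp1, the phosphatase of the set, was the steadiest member. It had log2 intensities of 8.08, 8.09 and 8.01 in homozygous embryos, 7.96, 8.07 and 8.24 in heterozygous embryos and 8.02 and 8.13 in wild-type embryos. All 8 embryos lay within 1.21-fold of each other. The difference of homozygous minus other embryos was -0.02 (SE 0.09, 95% interval -0.23 to 0.18, limma adjusted p = 0.901), an interval that allows a fold between 0.852 and 1.14. Under the alternatives of processing the difference ran between -0.24 and 0.01, so its lower end fell outside that interval.

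**Figure D2:**
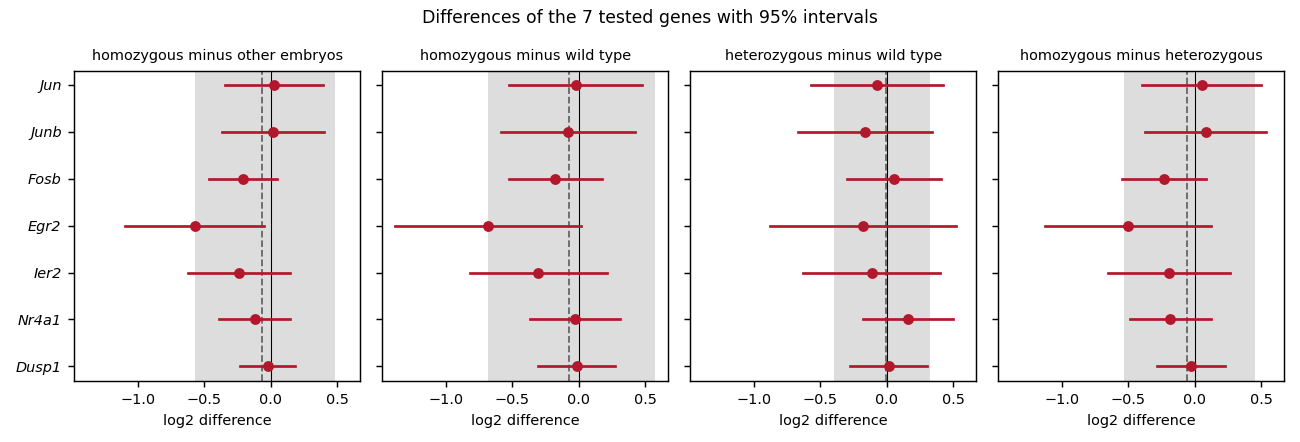
Log2 differences (horizontal axis) of the 7 tested genes in each of the 4 comparisons, with 95% intervals of the fit. Grey marks the 5th to 95th percentile of all tested probes, the dashed line their median and the solid line 0. The intervals for Egr2 are the widest, and the Egr2 point for homozygous minus other embryos, at -0.57, lies at the lower grey edge.

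Between homozygous and wild-type embryos, all 7 tested genes had a negative difference, between -0.68 for Egr2 (SE 0.30, limma adjusted p = 0.334) and -0.02 for Dusp1 (SE 0.12, limma adjusted p = 0.961). With cyclic loess in place of quantile normalization 3 of these signs turned, at 0.06 for Junb, 0.10 for Nr4a1 and 0.0059 for Dusp1. Their median was -0.08, beside -0.07 for all tested probes. Egr2 and Fosb did not overlap, with all homozygous values below both wild-type values, as in 25.2% of all probes. The Egr2 difference rested on wild-type embryo 13, at 6.03: it was -0.31 without that embryo and -1.04 without wild-type embryo 11, at 5.30. For Fosb the difference was -0.18 (SE 0.15, limma adjusted p = 0.570).

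Between heterozygous and wild-type embryos, 3 of the 7 differences were positive. They ran between -0.18 for Egr2 (SE 0.30) and 0.16 for Nr4a1 (SE 0.15), each with a limma adjusted p of 0.9999, and no member separated these genotypes, as 19.7% of all probes did in 1 direction or the other. The member median was -0.07, beside -0.01 for all tested probes. The 95% interval ran between -0.27 and 0.30 for Dusp1, the narrowest of the members, and between -0.88 and 0.52 for Egr2, the widest.

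Between homozygous and heterozygous embryos, 2 of the 7 differences were positive, those of Jun (0.05) and Junb (0.08), and with median scaling that of Jun was -0.19. The lowest was that of Egr2, at -0.50 (SE 0.27, limma adjusted p = 0.478), followed by Fosb at -0.23 (SE 0.14, limma adjusted p = 0.504). Egr2 and Nr4a1 had every homozygous value below every heterozygous one, as in 12.7% of all probes, and the Nr4a1 difference was -0.18 (SE 0.13, limma adjusted p = 0.568). The member median was -0.18, beside -0.06 for all tested probes.

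The spread between embryos of 1 genotype was described by the residual SD of the model of 3 genotype means. Egr2 had the widest spread of the tested members, 0.38, at the 83.6th percentile of all tested probes, and Dusp1 the narrowest, 0.10, at the 11.6th percentile. Ier2 (0.27), Junb (0.26) and Jun (0.26) lay between the 64.7th and 66.7th percentiles, and Fosb (0.15) and Nr4a1 (0.14) at the 33.9th and 30.0th. The median was 0.26 over the 7 members and 0.20 over all tested probes. Across all 8 embryos the highest value of a member exceeded the lowest by 1.21-fold for Dusp1, 1.40-fold for Nr4a1, 1.45-fold for Fosb, 1.54-fold for Jun and for Junb, 1.75-fold for Ier2 and 2.49-fold for Egr2.

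**Figure D3:**
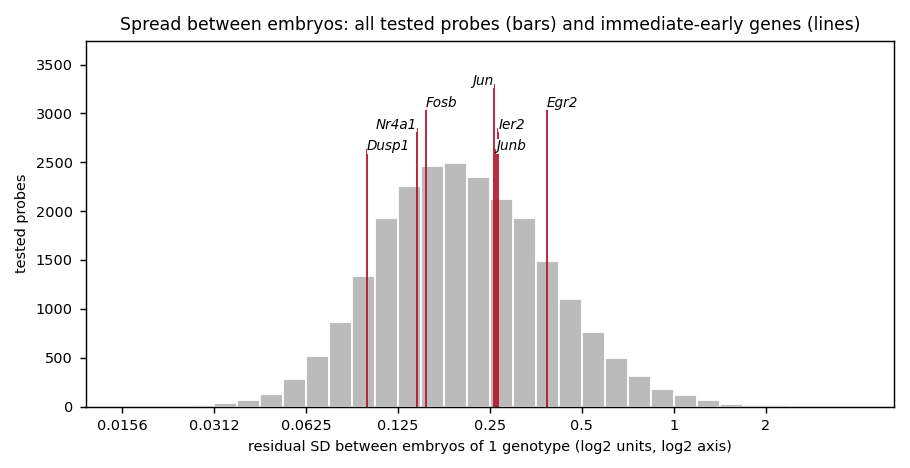
Residual SD between embryos of 1 genotype (horizontal axis, log2 spacing) against the number of tested probes in each bin (grey bars). Red lines mark the 7 tested immediate-early genes, and their heights only separate the names. The genes lie between 0.10 for Dusp1 and 0.38 for Egr2, within the bulk of all probes.

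The members did not share 1 high embryo. Heterozygous embryo 10 was the highest for Fosb, Ier2 and Nr4a1 and the lowest for Jun and Junb, while wild-type embryo 13 was the highest for Jun and Egr2 and heterozygous embryo 15 for Junb and Dusp1. Homozygous embryo 2 was the lowest for Fosb, Egr2 and Nr4a1. For comparison, embryo 10 was the highest for 17.6% and the lowest for 9.26% of the 21788 probes measured on all arrays. Embryo 16, the lowest for 38.3% of those probes, was the lowest for Ier2 among the members. On the scale of the deposited value table embryo 10 was again the highest for Fosb, Ier2 and Nr4a1, but embryo 16 became the lowest for Fosb, Jun, Ier2 and Dusp1.

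Whether the members moved together over the 8 embryos was tested against Jun in place of Fos, which was not above background. Jun was taken because its probe gave the strongest spots of the tested members, which favours a well-measured probe and does not order the genes by expression. Junb followed Jun with Pearson's r of 0.79 (exact permutation p = 0.0234, adjusted over the 6 relations computed 0.141) and Spearman's rho of 0.76 (exact permutation p = 0.0368, adjusted 0.221). Without embryos 10 and 13, the pair farthest from the median Jun level, r was 0.63, and with median scaling it was 0.23. Fosb ran against Jun, with r of -0.67 (exact permutation p = 0.0655, adjusted 0.197) and rho of -0.52 (exact permutation p = 0.197, adjusted 0.590). That relation rested on the same 2 embryos, since r was -0.26 without them, and with median scaling it turned to 0.24, while over deviations from the genotype means it was -0.82 (exact permutation within genotypes, p = 0.0417, adjusted 0.25). Those deviations can be rearranged in 72 ways, so the smallest p they allow is 0.0139. The other 4 relations had r of -0.50 for Ier2, -0.37 for Nr4a1, -0.31 for Egr2 and 0.37 for Dusp1, with adjusted exact permutation p-values between 0.416 and 0.466. None of the 6 relations passed the adjustment over all embryos. With the genotype means taken out none passed either, but that test could not have passed a single relation, so nothing is concluded from it.

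Among 10832 named probes searched, the 5 whose log2 values were most like those of Jun over the 8 embryos were Dnm1, a dynamin of synaptic vesicle recycling, with r of 0.978, the ganglioside synthase gene St8sia1 (0.966), the homeobox gene Six2 (0.964), Tulp4 (0.961) and the mitochondrial carrier gene Slc25a27 (0.953). All 5 had their lowest value in heterozygous embryo 10, as Jun did. These correlations were picked as the highest of many and are given as a description.

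Genes that work with the immediate-early genes were read from lists. None of their members passed in any comparison, so the values below are levels and differences that missed the threshold. Unless stated, differences are log2 values of homozygous minus other embryos, where 20% of all probes had an unadjusted p under 0.05 and the median of all probes was -0.06.

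AP-1 partners, the bZIP proteins that pair with Jun or Fos, had 8 tested genes of 11 listed, with a median of 0.02, 4 positive and 0 at an unadjusted p under 0.05. The widest differences were those of Jdp2, a repressor that pairs with Jun, at 0.40, Batf3 at -0.32 and Atf3, a stress-induced factor with no usable spot in embryo 16, at -0.25. Jdp2 was 8.50, 8.36 and 9.45 in homozygous embryos 2, 7 and 16, against 8.15 to 8.61 in the other 5, and without embryo 16 its difference was 0.06. Batf3 moved to -0.14 without that embryo. Fosl1, the remaining Fos relative, was not above background on any array.

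Other immediate-early genes had 28 tested of 32 listed, with a median of -0.02, 12 positive and 10 at an unadjusted p under 0.05. The widest differences were those of Ier3, an early stress gene, at 0.89 (SE 0.39, limma adjusted p = 0.250), Pim1, a kinase, at 0.78 (SE 0.20, limma adjusted p = 0.140), and Klf6, a zinc-finger factor, at 0.70 (SE 0.25, limma adjusted p = 0.192). Ier3 was 7.49, 7.43 and 9.33 in homozygous embryos 2, 7 and 16, against 7.02 to 7.33 in the other 5. All 3 homozygous embryos lay above the others, as in 4.96% of all probes, and without embryo 16 the difference was 0.27. Klf6 moved to 0.47 and Pim1 to 0.65 without embryo 16. The neuronal activity genes Egr3, Egr4 and Npas4 were not above background on any array.

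The SRF, ternary complex and MAP kinase list had 17 tested of 22 listed, with a median of -0.08, 6 positive and 4 at an unadjusted p under 0.05. Creb1, the factor that binds the cAMP response element shown in the Dusp1 window, was 6.19, 6.49 and 6.17 in homozygous embryos 2, 7 and 16, 6.90, 6.95 and 6.85 in heterozygous embryos 3, 10 and 15, and 7.02 and 6.65 in wild-type embryos 11 and 13. All 3 homozygous embryos lay below the 5 others, as in 9.69% of all tested probes, and the difference of -0.59 (SE 0.12, limma adjusted p = 0.110) did not pass. It was -0.55 without embryo 16. Elk1, an SRF partner, differed by -0.46, or -0.17 without embryo 16, and Mapk3, which encodes the kinase ERK1, by 0.45.

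Feedback inhibitors, the Dusp, Sprouty, Spred and Nab genes that damp the MAP kinases or the Egr proteins, had 10 tested of 12 listed, with a median of 0.06, 5 positive and 1 at an unadjusted p under 0.05. Their widest differences were -0.40 for Spred2 (limma adjusted p = 0.178), -0.36 for Dusp8 and -0.35 for Spred1. Without embryo 16 these were -0.26, -0.37 and -0.10.

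Heat shock genes, another group that responds to handling, had 10 tested of 12 listed, with a median of -0.01, 5 positive and 1 at an unadjusted p under 0.05. The inducible chaperone gene Hspa1a was 5.35, 4.91 and 7.54 in homozygous embryos 2, 7 and 16, against 4.86 to 6.05 in the other 5. Embryo 16 stood above all others, and the difference of 0.38 (SE 0.55) turned to -0.44 without it. Hsph1 differed by -0.46, or -0.01 without embryo 16, and Dnaja1 by -0.33, or -0.23 without it.

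Hypoxia and glycolysis genes are a stress response that was listed for contrast. They had 13 tested of 16 listed, all 13 with a positive difference and 11 at an unadjusted p under 0.05, with a median of 0.70, or 0.63 without embryo 16. Vegfa, the vessel growth factor, was 8.65, 8.67 and 9.41 in homozygous embryos 2, 7 and 16, against 7.02 to 7.66 in the other 5, a difference of 1.57 (SE 0.22, limma adjusted p = 0.0574). Bnip3, a mitophagy receptor, differed by 1.35 (limma adjusted p = 0.0708) and Hk2, a hexokinase, by 1.20 (limma adjusted p = 0.0705), and none of the 3 passed. The list was chosen with this pattern already known, so its direction is no independent evidence. In the same embryos the 7 tested immediate-early genes had a median difference of -0.12.

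**Figure D4:**
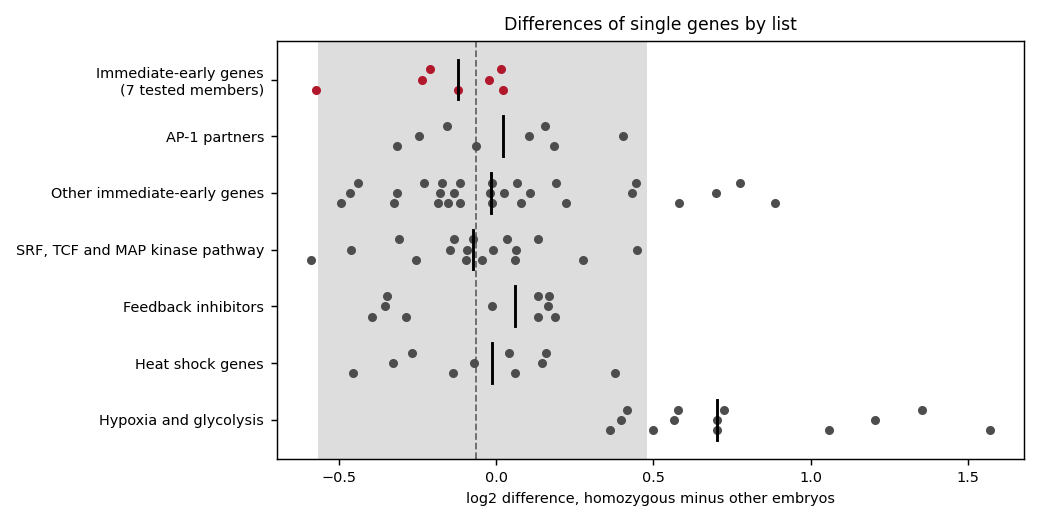
Log2 differences of homozygous minus other embryos (horizontal axis) for the 7 tested immediate-early genes (red) and the tested genes of 6 lists (grey points, 1 gene each). Black bars are medians, the grey band is the 5th to 95th percentile of all tested probes and the dashed line their median. The immediate-early genes have a median of -0.12, and the hypoxia and glycolysis genes, at 0.70, lie to the right of the other lists.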

How the data were processed

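RNA of 8 whole embryos (3 homozygous, 3 heterozygous, 2 wild type) was read on 1 array each. The intensity used here is, as deposited by the authors, a linear spot mean minus local background per probe, which was checked against both columns. The deposited value table holds the same intensity divided by 1 factor per array. The sources used here do not name the scanner software or its settings. Precision is limited by the number of arrays, and each replicate is another embryo per the labels.

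Gene spots marked as contaminated, irregular or masked (206 to 1634 per array) were set missing, and control spots were left out. Intensities were quantile normalized, floored at the 5th percentile of positive values (4.50, or 2.17 as log2) and log2 transformed with limma 3.58.1 in R 4.3.3. Probes that every embryo of some genotype showed above background (23389, of which 1 or 2 could not be fitted) were tested with lmFit and eBayes, two-sided, with Benjamini-Hochberg adjustment over all of them and a threshold of 0.05. One model compared homozygous with the 5 other embryos, and another, with 5 residual degrees of freedom, the genotypes in pairs. The code was tested on simulated data. Probes were named through RefSeq accessions of GRCm38.p6, which gave 1 symbol to 14763 gene probes. Correlations used exact two-sided permutation tests, within genotypes for deviations from genotype means.

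Every member is named, and of each pathway list the 3 genes with the widest difference between homozygous and other embryos and any gene that passed. Marker lists name up to 2 genes with the highest mean, with the hindbrain and placental markers given in addition, except 1 hindbrain gene that is not reported here. The members, the lists and the tests were chosen with earlier results of these data known. Alternatives were 2 other normalizations, the deposited table, 2 other floors, normexp, 2 other filters, marked spots kept, array weights, a trended robust prior, only the genotypes compared, and embryos left out. Leaving embryo 16 out of the list values, and the alternatives for Fcgr1, were added after seeing the data. Where a wild-type embryo was left out, the remaining one was taken to vary like the other groups.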

Additional observations from a re-analysis of the deposited data

How the results depend on the processing

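No immediate-early gene passed the threshold under any of 21 alternatives: of 577 differences 0 passed, with a lowest limma adjusted p of 0.169, for Egr2 between homozygous and other embryos on the deposited value table. No paired analysis was possible because the embryo numbers are unique and the genotypes share none. Slide or scan as a block was not run, since the files used here give none that holds more than 1 array. The difference of Egr2 kept its sign between homozygous and other embryos under every alternative, between -0.72 and -0.24.

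Signs turned for differences near 0 and for some larger ones. Among the larger were Ier2 homozygous minus heterozygous, -0.19 as reported, and Egr2 heterozygous minus wild type, -0.18 as reported. Homozygous minus other embryos, Jun was -0.24 with median scaling, -0.27 on the deposited table and -0.043 without embryos 10 and 16. Junb was -0.022 with marked spots kept, -0.026 with array weights and -0.048 without embryos 10 and 16, and Dusp1 was 0.0062 with cyclic loess. Homozygous minus wild type, cyclic loess gave 0.064 for Junb, 0.0059 for Dusp1 and 0.10 for Nr4a1, array weights 0.0035 for Dusp1, and leaving out embryos 10 and 16 gave 0.011 for Jun and 0.0081 for Dusp1. Heterozygous minus wild type, Dusp1 was -0.055 with median scaling, -0.00055 with cyclic loess, -0.057 on the deposited table and -0.0081 with array weights, and without embryos 10 and 16 Fosb was -0.076 and Jun 0.11. Homozygous minus heterozygous, Jun was -0.19 with median scaling and -0.22 on the deposited table, Dusp1 was 0.0065 with cyclic loess and 0.012 with array weights, and without embryos 10 and 16 Jun was -0.10, Junb -0.020 and Ier2 0.12. The cause of these turns was not tested.

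Leaving out 1 embryo at a time, homozygous minus other embryos ran between -0.079 and 0.080 for Jun, -0.069 and 0.099 for Junb, and -0.054 and 0.014 for Dusp1. Homozygous minus wild type ran between -0.21 and 0.16 for Jun, -0.24 and 0.077 for Junb, -0.071 and 0.039 for Dusp1, and -0.14 and 0.086 for Nr4a1. Heterozygous minus wild type ran between -0.075 and 0.16 for Fosb, -0.26 and 0.11 for Jun, -0.54 and 0.19 for Egr2, -0.30 and 0.0076 for Ier2, and -0.062 and 0.076 for Dusp1. Homozygous minus heterozygous ran between -0.13 and 0.17 for Jun, -0.030 and 0.28 for Junb, -0.30 and 0.00028 for Ier2, and -0.092 and 0.045 for Dusp1. Hspa1a was -0.44 without embryo 16.

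With median scaling r with Jun was 0.24 for Fosb and 0.39 for Ier2.

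The count of all probes past the threshold depended on the processing. Homozygous against other embryos, 25 became 42 with cyclic loess (20 higher and 22 lower, against 7 and 18), 45 on the deposited table, 85 with normexp, 6 without the filter, 50 for probes above background on all 8 arrays, 110 with array weights, 118 with a trended robust prior, 70 without embryos 10 and 16, and 5 to 314 without 1 embryo. Homozygous against wild type, 8 became 27 with median scaling, 20 with cyclic loess, 27 on the deposited table, 5 with the floor at the 1st percentile, 36 with normexp, 4 without the filter, 5 with marked spots kept, 208 with array weights, 48 with a trended robust prior, 0 with only those genotypes fitted (3042 at an unadjusted p under 0.05), 33 without embryos 10 and 16, and 0 to 42 without 1 embryo. Heterozygous against wild type, 0 (538 at an unadjusted p under 0.05) became 2 with median scaling, 1 with cyclic loess, 2 on the deposited table, 1 with array weights, 1 with a trended robust prior, 9 without embryos 10 and 16, and 0 to 3 without 1 embryo. Homozygous against heterozygous, 5 became 10 with median scaling, 9 with cyclic loess, 12 on the deposited table, 11 with normexp, 13 with array weights, 16 with a trended robust prior, 33 without embryos 10 and 16, and 4 to 58 without 1 embryo. Across all of these settings 0 of the tested immediate-early genes were among the probes that passed.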

Other observations

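Markers of the tissues in a whole embryo were read in the same fit, as homozygous minus other embryos, and none passed the limma threshold in that comparison. In the other 3 comparisons 1 marker passed: Fcgr1, a macrophage Fc receptor, was lower in homozygous embryos 2, 7 and 16, at log2 intensities of 3.75, 3.83 and 3.77, than in wild-type embryos 11 and 13, at 5.96 and 6.01 (difference -2.20, SE 0.23, limma adjusted p = 0.0484), with 5.38, 4.68 and 5.48 in heterozygous embryos 3, 10 and 15. Its spot was above background in 1 of 3 homozygous, 2 of 3 heterozygous and both wild-type embryos. Fcgr1 thus met the filter only through the wild-type embryos, where it was high. Homozygous embryos 2 and 7 lay below the lowest log2 value above background on their arrays, 4.39 and 4.35. The difference and its p-value therefore set detected values against values mostly at background. Of 20 alternatives, run on this gene after its values were seen, 8 kept the call and 12 did not, with limma adjusted p-values between 0.0062 and 0.347, and leaving out any 1 embryo other than heterozygous 10 ended it. The difference was -0.78 with normexp and between -2.32 and -2.10 under the other alternatives. Homozygous minus other embryos, the median log2 difference was -1.05 over 4 liver genes and -1.72 over 3 macrophage genes. All of them were negative and at an unadjusted limma p under 0.05, which 20% of all probes had. Heterozygous embryo 10 lay within the homozygous range for Afp and Alb of the liver and Lyz2 and Mrc1 of the macrophages. For Ttr, Apoa1 and Fcgr1 it lay above that range. The macrophage median was the value of Fcgr1, and of the macrophage genes only Lyz2 was above background on all 8 arrays. Mrc1 in homozygous embryo 7 was at the floor of 2.17. The median difference was -0.37 over 4 neuron genes, all negative, 0.28 over 2 heart genes, 0.24 over 3 endothelium genes and -0.01 over 3 erythroid genes. It was 0.12 over 2 trophoblast and decidua genes and -0.06 for Dab2 of the visceral endoderm. The part of tissue shares in the immediate-early values was not tested.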
